A study of Livoneca redmanii with 3 samples.

Results

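The genes described here are 7 assembled genes of Livoneca redmanii, an isopod crustacean that lives as a parasite on fish, chosen by their annotation as histone or histone-related genes. They comprise 18 contigs (assembled transcripts) of the 31922 contigs and 26084 genes in the count table. The working label for the set, core histone genes, held for only a part of it. TRINITY_DN263_c0_g1 carried the name HTB1 and the description of histone H2B. TRINITY_DN142_c0_g1 carried the histone H3 names HIST1H3D and HIST3H3. TRINITY_DN227_c0_g1 carried a KEGG orthology entry of histone H2A on 3 of its 4 contigs and, on 2 of those 3, also the histone H3 name H3F3C. TRINITY_DN64050_c0_g1 was named H2AFZ, a variant of histone H2A. The other 3 were not histones: TRINITY_DN65479_c0_g1 and TRINITY_DN16092_c0_g1 were both named SSRP1, a subunit of the FACT complex that takes nucleosomes apart and rebuilds them, and TRINITY_DN41748_c0_g1 was named C14orf169, described as a histone lysine demethylase and ribosomal histidine hydroxylase.

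Parasites taken from tilapia in Lake Qarun, Egypt, and kept in aquaculture were exposed to 3 conditions, and each condition was represented by 1 RNA sequencing library made from total RNA of whole specimens. Control animals were held at 35 PSU and 26 °C, low-salinity animals were taken by degrees from that salinity to 8 PSU, and low-temperature animals were cooled from 26 °C to 10 °C. The labels used here give neither a temperature for the low-salinity animals, nor a salinity for the low-temperature animals, nor the number of animals in a library. With 1 library per condition no difference below has a replicate check, no test was run, and every interval covers counting error only.

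Core histones H2A, H2B, H3 and H4 form the protein spool around which DNA is wound into nucleosomes. In many animals the genes of the replication-dependent core histones lie in repeated clusters, and their mRNAs are made mostly while DNA is copied and end in a stem-loop in place of a poly(A) tail. Replacement histones, among them H2A variants such as H2AFZ and H3 variants of the H3F3 family, are mostly made throughout the cell cycle from separate genes with polyadenylated mRNAs, and chaperones such as FACT handle histones during transcription and replication.

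The libraries differed widely in make-up. They summed to between 1434390 and 2782324 counts. Contigs with mobile-element text in their annotation made up 48.4% of control counts, 55.0% of low-salinity counts and 4.63% of low-temperature counts. The genes of animal body proteins looked at here were abundant in low temperature alone. Beta-actin (TRINITY_DN31_c0_g1) summed to 4, 4 and 12689 counts in control, low salinity and low temperature, and the myosin heavy chain gene (TRINITY_DN17_c0_g1) to 2, 2 and 10745. In the same order larval serum protein and hemocyanin (TRINITY_DN12_c0_g1) summed to 13, 10 and 42385 counts, and vitellogenin (TRINITY_DN9_c0_g1) to 0, 2 and 13103. The part of these differences in the results below was not tested.

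The 7 genes fell into groups with opposite patterns. The 3 genes assembled as several contigs, named for H2B, for H3 and for H3 with H2A, had most of their counts in control and fewest in low temperature. Together they summed to 2363 counts (control), 817 (low salinity) and 114 (low temperature). Without scaling this was 1103 CPM, the usual unit of counts relative to library size, in the control library (exact binomial 95% interval 1059 to 1148), 569.6 CPM in the low-salinity library (531.2 to 610.0) and 41.0 CPM in the low-temperature library (33.8 to 49.2). The 4 genes with a single contig (H2AFZ, both SSRP1 genes and C14orf169) were seen in low temperature alone, with 221 counts, and were at 0 elsewhere. A count of 0 allows a share of up to 0.000140% of the control library and 0.000209% of the low-salinity library, taken as 3 counts. In whole-animal RNA, fewer cells that make a transcript and less of it per cell cannot be told apart. The part of the differing make-up of the libraries in these patterns was not tested either.

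**Figure D1:**
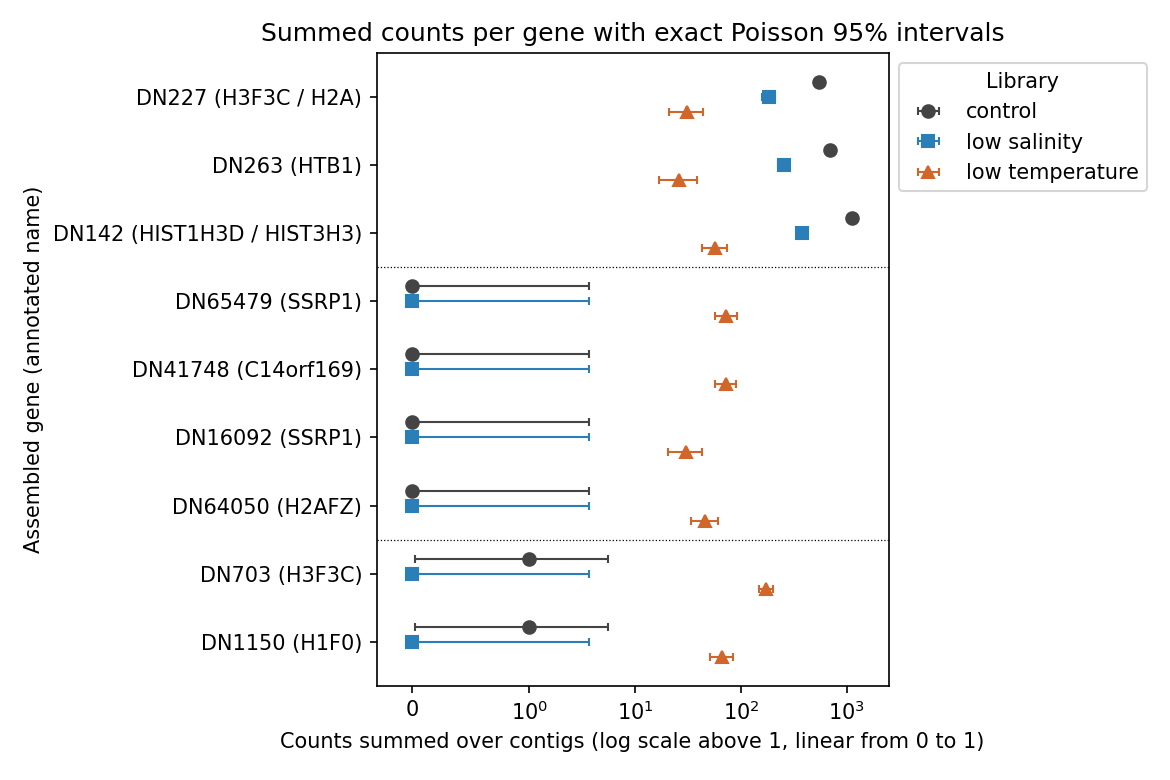
Counts summed over all contigs of each gene (horizontal axis, log scale above 1 and linear from 0 to 1) in control (circles), low salinity (squares) and low temperature (triangles), with exact Poisson 95% intervals as bars. The 3 multi-contig histone genes at the top run from 543 to 1121 counts in control down to 26 to 57 in low temperature, while the 4 single-contig genes in the middle, and the H3F3C and H1F0 genes outside the set at the bottom, have 0 or 1 count in control and 30 to 173 in low temperature.

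The H3 gene TRINITY_DN142_c0_g1 had 1121, 379 and 57 counts in control, low salinity and low temperature. After TMM scaling (a correction of library size for the make-up of the library) these were 301.9, 205.5 and 45.6 CPM. The scaled level in low temperature was 0.151 of that in control (exact 95% interval 0.114 to 0.197), a log2 ratio of -2.73. The H2B gene TRINITY_DN263_c0_g1 had 699, 254 and 26 counts in control, low salinity and low temperature, or 188.2, 137.7 and 20.8 CPM. Its low-temperature level was 0.111 of control (0.0717 to 0.163), a log2 ratio of -3.18. H2B pairs with H2A in the nucleosome, whereas H3 pairs with H4.

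The H3 and H2A gene TRINITY_DN227_c0_g1 had 543, 184 and 31 counts in control, low salinity and low temperature, or 146.2, 99.8 and 24.8 CPM. Its low-temperature level was 0.170 of control (0.114 to 0.244), a log2 ratio of -2.56. All 3 genes were therefore highest in control, intermediate in low salinity and lowest in low temperature, and no interval of a ratio between libraries included 1. The order of all 3 libraries held under each of the 6 scalings tried. Over these scalings the log2 ratio of low temperature to control ran from -5.75 to -0.97 for TRINITY_DN227_c0_g1, from -6.37 to -1.59 for TRINITY_DN263_c0_g1 and from -5.92 to -1.14 for TRINITY_DN142_c0_g1.

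In low salinity the 3 genes were lower than in control by similar amounts. The scaled level in low salinity was 0.682 of control for TRINITY_DN227_c0_g1 (0.574 to 0.808), 0.732 for TRINITY_DN263_c0_g1 (0.631 to 0.846) and 0.681 for TRINITY_DN142_c0_g1 (0.604 to 0.766). None of these gene sums differed by 2-fold or more. Over the 6 scalings the log2 ratios stayed below 0, between -0.99 and -0.24. Against low temperature, low salinity was 4.02-fold higher for TRINITY_DN227_c0_g1 (2.74 to 6.09), 6.62-fold for TRINITY_DN263_c0_g1 (4.41 to 10.3) and 4.50-fold for TRINITY_DN142_c0_g1 (3.40 to 6.06). The sizes depended on the scaling: over the 6 scalings the log2 ratios ran from 0.27 to 5.29, from 0.98 to 6.01 and from 0.43 to 5.46 in the same gene order, and at the lowest, TMM over the compared contigs, all 3 genes fell short of 2-fold.

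The proportions between these genes within a library do not depend on the scaling. The count of TRINITY_DN227_c0_g1 was 0.484 of that of TRINITY_DN142_c0_g1 in control (exact 95% interval 0.436 to 0.537), 0.485 in low salinity (0.405 to 0.580) and 0.544 in low temperature (0.339 to 0.857). That of TRINITY_DN263_c0_g1 was 0.624 of TRINITY_DN142_c0_g1 in control (0.567 to 0.686), 0.670 in low salinity (0.569 to 0.788) and 0.456 in low temperature (0.275 to 0.737). All of these intervals overlap between libraries, and those of low temperature are wide because they rest on few counts. Contig lengths were not used here, so the proportions are of counts and not of molecules.

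**Figure D2:**
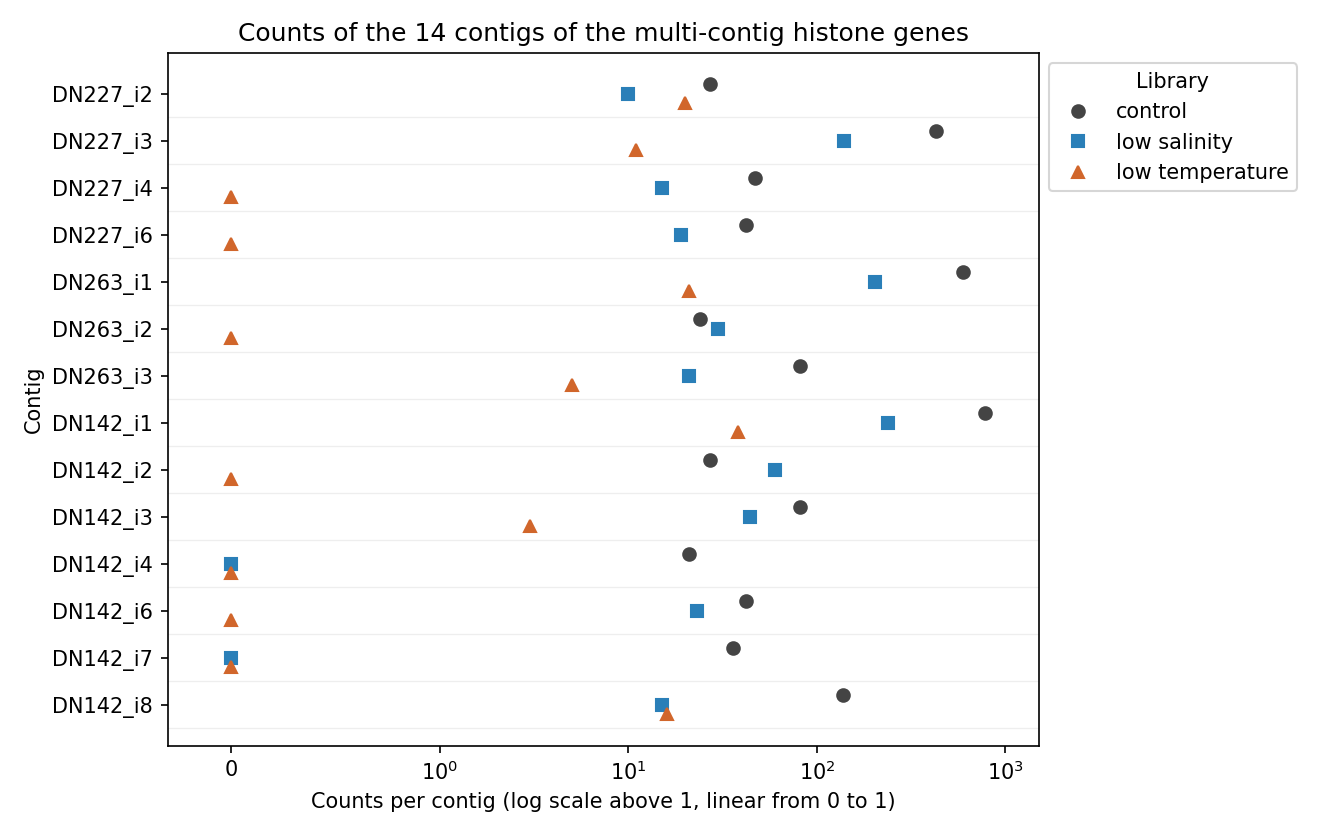
Counts of each of the 14 contigs of TRINITY_DN227_c0_g1, TRINITY_DN263_c0_g1 and TRINITY_DN142_c0_g1 (horizontal axis, log scale above 1 and linear from 0 to 1) in control (circles), low salinity (squares) and low temperature (triangles). Low temperature lies at 0 for 7 contigs and between 3 and 38 for the other 7, and 2 contigs of TRINITY_DN142_c0_g1 have counts in control alone.

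At the level of contigs, 13 of these 14 averaged at least 10 counts per library and entered the comparison. TRINITY_DN142_c0_g1_i4, with 21, 0 and 0 counts in control, low salinity and low temperature, did not. In low temperature against control 12 of the 13 were at least 2-fold lower and 1 was at least 2-fold higher. Over all 8563 contigs compared, 43.0% were at least 2-fold lower and 49.6% at least 2-fold higher. Of contigs with mobile-element text 73.7% were lower and 11.9% higher, and of contigs with other annotation 5.96% were lower and 93.3% higher. The 13 contigs belong to the class with other annotation, except TRINITY_DN227_c0_g1_i6, which has no annotation. The median log2 ratio of the 13 contigs was -3.67, against 0.83 over all contigs, a distance of -4.50. With the 6 of these contigs that were at 0 in low temperature set to a floor of 3 counts, the median was -2.24. Those 6 passed the mean-count filter through the other libraries alone and had to be lower, so their number is no evidence of a direction.

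Each gene had a leading contig that carried most of its counts in control and low salinity. TRINITY_DN142_c0_g1_i1, annotated HIST1H3D and HIST3H3, had 776, 237 and 38 counts in the order control, low salinity, low temperature, and its low-temperature level was 0.146 of control (0.102 to 0.202). TRINITY_DN263_c0_g1_i1, annotated HTB1, had 594, 203 and 21 counts, a ratio of 0.105 (0.0646 to 0.162). TRINITY_DN227_c0_g1_i3, annotated H3F3C, had 427, 140 and 11 counts, a ratio of 0.0766 (0.0379 to 0.138). In all 3 the libraries kept the order of the gene sums.

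The contig that went the other way was TRINITY_DN227_c0_g1_i2, which had 27, 10 and 20 counts in control, low salinity and low temperature. Its scaled level in low temperature was 2.20-fold that in control (1.17 to 4.08). This direction depended on the scaling, since total counts moved every log2 ratio of the comparison by -1.95, upper-quartile scaling by -2.47 and TMMwsp by -3.19, against a log2 ratio of 1.12 for this contig. Its share of the gene, which no scaling affects, was 4.97% in control (exact binomial 95% interval 3.30% to 7.15%), 5.43% in low salinity (2.64% to 9.77%) and 64.5% in low temperature (45.4% to 80.8%). TRINITY_DN227_c0_g1_i3 made up 78.6%, 76.1% and 35.5% in the same order. Such shares do depend on how reads that match several contigs were divided among them, and the part of that division was not tested. The other contigs of the gene, TRINITY_DN227_c0_g1_i4 and TRINITY_DN227_c0_g1_i6, had 47 and 42 counts in control, 15 and 19 in low salinity, and none in low temperature. Without TRINITY_DN227_c0_g1_i2, left out after its values were seen, the gene had 516, 174 and 11 counts in the same order and a low-temperature ratio of 0.0634 (0.0314 to 0.114).

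The annotation of that contig differed too. TRINITY_DN227_c0_g1_i3 and TRINITY_DN227_c0_g1_i4 were each listed with 2 proteins, one named H3F3C and one with the H2A entry, while TRINITY_DN227_c0_g1_i2 was listed with the H2A-type protein alone and TRINITY_DN227_c0_g1_i6 with none. In all, 7 of the 14 contigs were listed with 2 proteins, 6 with 1 and 1 without any. The contigs with 2 proteins held 1517 of the 2363 control counts and 68 of the 114 low-temperature counts. A count on such a contig cannot be assigned to either of its proteins.

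**Figure D3:**
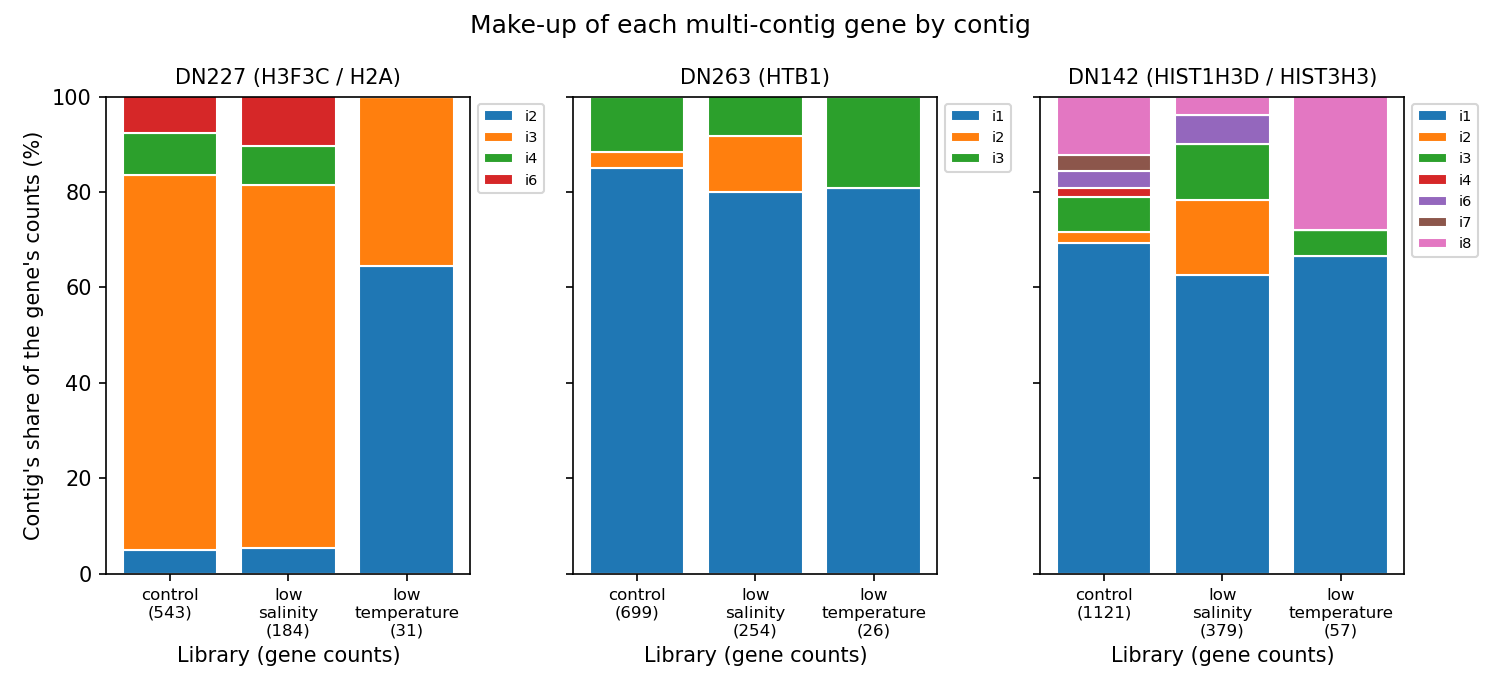
Share of each contig in the counts of its gene (vertical axis, percent, bars stacked to 100%) for the 3 multi-contig genes in control, low salinity and low temperature, with the gene's counts in parentheses under each bar. Contig i2 of DN227 grows from 4.97% in control to 64.5% in low temperature, and contig i2 of DN142 takes 15.8% in low salinity alone.

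Minor contigs of the H3 gene changed their shares between control and low salinity. TRINITY_DN142_c0_g1_i2 had 27, 60 and 0 counts in control, low salinity and low temperature, and its share was 2.41% in control (1.59% to 3.49%) and 15.8% in low salinity (12.3% to 19.9%). TRINITY_DN142_c0_g1_i8 had 138, 15 and 16 counts, and its share was 12.3% in control (10.4% to 14.4%), 3.96% in low salinity (2.23% to 6.44%) and 28.1% in low temperature (17.0% to 41.5%). TRINITY_DN142_c0_g1_i7 had 36 counts in control and 0 in both other libraries. The leading contig stayed between 62.5% and 69.2% of the gene in the 3 libraries. TRINITY_DN142_c0_g1_i3 had 81, 44 and 3 counts and TRINITY_DN142_c0_g1_i6 had 42, 23 and 0, and for both the interval of the ratio of low salinity to control included 1 (0.740 to 1.60 and 0.633 to 1.88).

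The H2B gene showed the same kind of shift in its minor contigs. TRINITY_DN263_c0_g1_i2 had 24, 30 and 0 counts in control, low salinity and low temperature, and its share was 3.43% in control (2.21% to 5.07%) and 11.8% in low salinity (8.11% to 16.4%). TRINITY_DN263_c0_g1_i3 had 81, 21 and 5 counts. Salmon divides reads that match several contigs among them, so reads shared between near-identical contigs of a gene can move from one to another, and its part in these shifts was not tested. The gene sums do not depend on how reads are divided among the contigs of 1 gene.

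In low salinity against control, 2 of the 13 contigs were at least 2-fold higher and 2 at least 2-fold lower, where 5.62% and 13.3% of all contigs were. The higher ones were TRINITY_DN142_c0_g1_i2, at 4.47-fold (2.80 to 7.33), and TRINITY_DN263_c0_g1_i2, at 2.52-fold (1.42 to 4.50). The lower ones were TRINITY_DN142_c0_g1_i8, at 0.219 of control (0.119 to 0.374), and TRINITY_DN142_c0_g1_i7, at least 5.96-fold lower when low salinity was set to 3 counts. With total counts in place of TMM 1 was higher and 6 were lower. In low salinity against low temperature 10 of the 13 were at least 2-fold higher and 1, TRINITY_DN227_c0_g1_i2, at least 2-fold lower, against 41.8% and 49.9% of all contigs. Of the 10, 5 had counts in control and low salinity only, so their direction was fixed in advance.

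Of the single-contig genes, H2AFZ (TRINITY_DN64050_c0_g1_i1), a histone H2A variant found at promoters in many animals, had 46 counts in low temperature alone (Poisson 95% interval 33.7 to 61.4, exact). With TMM scaling and 3 counts as the floor of the control library, it was at least 45.6-fold higher than control and, by the same reckoning, at least 22.6-fold higher than low salinity. Such bounds, here and below, take the low-temperature count as observed and leave out its counting error. Its contig was listed on 2 rows with the same protein, and the count was used once here.

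The SSRP1 genes had 73 counts (TRINITY_DN65479_c0_g1_i1, 57.2 to 91.8) and 30 counts (TRINITY_DN16092_c0_g1_i1, 20.2 to 42.8) in low temperature, both against 0 elsewhere, at least 72.4-fold and 29.7-fold higher than control. Whether they are pieces of 1 transcript was not tested. C14orf169 (TRINITY_DN41748_c0_g1_i1) had 72 counts (56.3 to 90.7) against 0 and 0, at least 71.4-fold higher than control. Over the 6 scalings the bounds against control for the 4 genes, as log2 values, lay between 1.70 and 7.77. For low salinity against low temperature they lay between -6.91 and -0.60, with H2AFZ between -6.24 and -1.21, and the bound of TRINITY_DN16092_c0_g1 thus fell short of 2-fold at its smallest. Being at 0 in 2 libraries, all 4 contigs passed the mean-count filter through low temperature alone and had to be higher there, so their number is no evidence of a direction, and TRINITY_DN16092_c0_g1_i1, with its mean of 10, lay exactly on the limit.

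The number of contigs went with the direction in all 7 members. Outside the set this did not hold for the H3F3C gene TRINITY_DN703_c0_g1, with 3 contigs, and the H1F0 gene TRINITY_DN1150_c0_g1, with 4. Their counts in control, low salinity and low temperature were 1, 0 and 173, and 1, 0 and 66. Over the whole table, counted by gene sums with a mean of at least 10, 55.4% of the 3787 genes of 1 contig were higher by 2-fold or more in low temperature than in control and 37.4% lower by as much. Of the 1716 genes of several contigs, 48.7% were higher and 44.0% lower. Counts in low temperature alone were found for 41.9% of the genes of 1 contig and 29.1% of those of several. For the 4 single-contig members the filter had fixed the direction. Their contigs carry other annotation, and 93.3% of the compared contigs of that class exceeded control by 2-fold or more in low temperature. Only 5.96% of the class fell below control by as much, the direction of the 3 multi-contig members. The 7 genes were chosen and not sampled. Whether they differ from other genes in how the number of contigs goes with the direction was not tested.

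The best-matching proteins recorded in the annotation came from widely different species. Read by the taxonomy number at the start of each identifier, the single-contig genes matched arthropods: Daphnia pulex and Bombus impatiens for SSRP1, Tetranychus urticae for C14orf169 and Zootermopsis nevadensis for H2AFZ. The H2B gene matched the rust fungus Puccinia graminis on all of its contigs, the H3 gene the rodents Nannospalax galili and Cricetulus griseus, and TRINITY_DN227_c0_g1 the bonobo Pan paniscus for its H3 protein and the centipede Strigamia maritima for its H2A-type protein. Outside the 7 genes, the H3F3C gene TRINITY_DN703_c0_g1 matched the cichlid fish Maylandia zebra and the H1F0 gene TRINITY_DN1150_c0_g1 the pika Ochotona princeps. Both of these genes had nearly all of their counts in low temperature. The matches of other histone-annotated genes outside the set, among them HIST1H1A, were not read for species. Core histones are among the most conserved proteins known, and a best match alone does not give the species of a contig. The species of origin of the contigs was not tested.

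**Figure D4:**
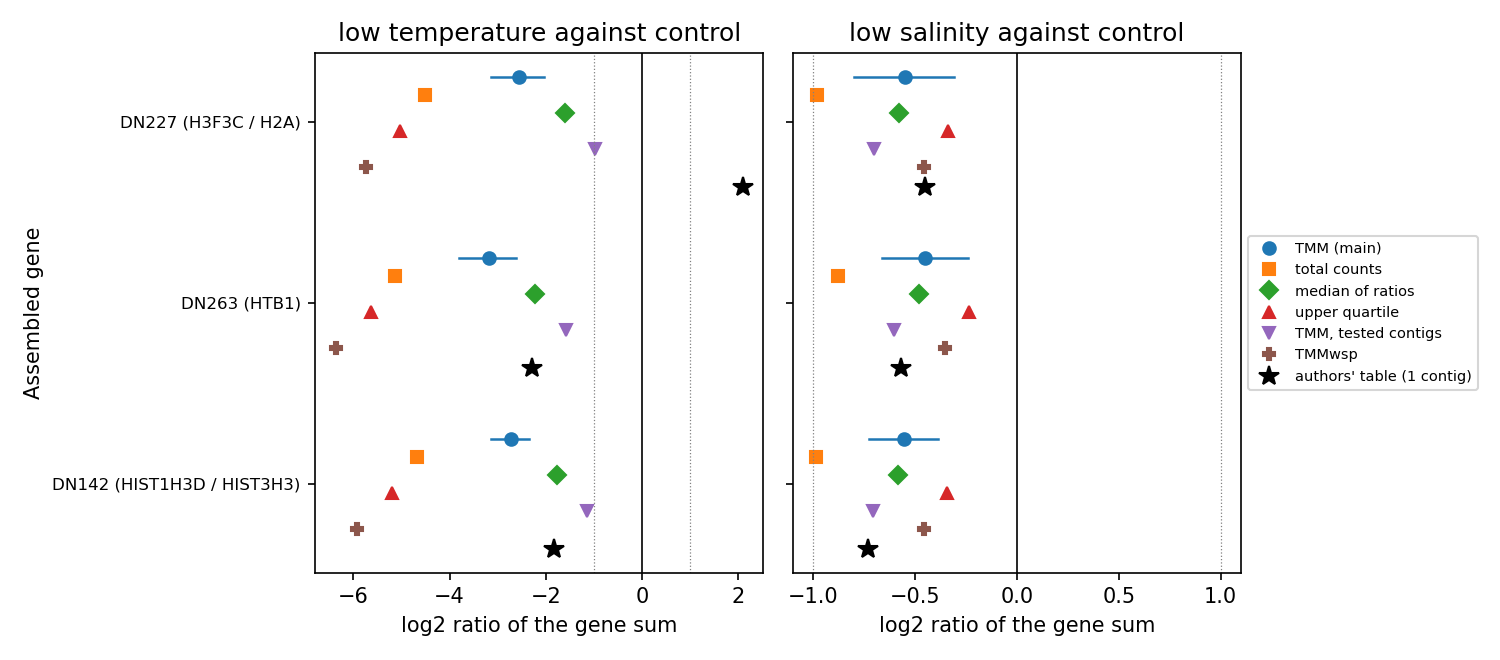
Log2 ratio of the summed counts (horizontal axis) of the 3 multi-contig genes for low temperature against control (left) and low salinity against control (right) under 6 scalings, with the exact 95% counting interval of TMM as a bar, dotted lines at a 2-fold difference, and the ratio from the authors' table of 1 contig per gene as a star. All scalings lie below 0 for each gene, and the star of DN227 lies at 2.10 in low temperature against control, opposite to its gene sum.

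In the authors' deposited table of normalized values each gene was represented by 1 contig. For TRINITY_DN227_c0_g1 this was TRINITY_DN227_c0_g1_i2, which held 4.97% of the gene's counts in control. The log2 fold change of low temperature against control in the authors' deposited table was 2.09 for this gene, opposite in sign to the gene sum. The sign of this contig's ratio also depended on the scaling. In the same comparison the authors' value was -2.27 for TRINITY_DN263_c0_g1 and -1.79 for TRINITY_DN142_c0_g1, both represented by their leading contig. The authors' deposited table gave 10.3 for H2AFZ, whose normalized value of 229.0 in low temperature was 4.98 times its count, where the value of C14orf169 was 2.49 times its count. The same was true of TRINITY_DN142_c0_g1_i1, and both of these contigs were listed on 2 rows. For low salinity against control the authors' deposited table gave log2 fold changes of -0.74 for TRINITY_DN142_c0_g1, -0.58 for TRINITY_DN263_c0_g1 and -0.42 for TRINITY_DN227_c0_g1.

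Other histone annotations outside the 7 genes had most of their counts in low temperature, as did contigs with other annotation in general. Of these contigs, the class that all of the following lists belong to, 93.3% were higher by 2-fold or more in low temperature than in control and 5.96% lower by as much, with a median log2 ratio of 7.77, so a list in which nearly all contigs are higher is near that share. The text search matched 12 contigs of 8 genes, with 12, 8 and 301 counts in control, low salinity and low temperature. All 4 contigs in the comparison were higher in low temperature than in control by 2-fold or more, with a median log2 ratio of 7.08, or 6.19 with contigs at 0 in control set to the floor of 3 counts. The H3 gene TRINITY_DN703_c0_g1, whose 3 contigs were all named H3F3C, had 1, 0 and 173 counts in control, low salinity and low temperature, a ratio of low temperature to control of 514.4 (exact 95% interval 91.1 to 20433). The linker histone gene H1F0 (TRINITY_DN1150_c0_g1), whose product binds the DNA between nucleosomes, had 1, 0 and 66 counts, a ratio of 196.2 (34.0 to 7867). H1FOO (TRINITY_DN53281_c0_g1_i1) had 0, 0 and 25 counts. The name H3F3C thus stood on contigs with opposite patterns, in TRINITY_DN227_c0_g1 and in TRINITY_DN703_c0_g1. Of 2 rare contigs named HIST1H1A, TRINITY_DN72162_c0_g1_i1 had 4, 5 and 9 counts, a scaled ratio of low temperature to control of 6.69 (1.87 to 29.7) whose direction turns under TMMwsp, which moves it by -3.19 on the log2 scale. The other, TRINITY_DN12443_c0_g1_i1, had 6, 2 and 0 counts. Of the matched genes, 3 were not histones: HINFP, RPS6KA4 and a gene described by H2A ubiquitination. In low salinity against control 2 of the 4 contigs counted as lower, each on 1 count against 0.

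Genes that handle or modify histones were nearly absent from control and low salinity. Histone chaperones, which carry histones to and from DNA, summed to 0, 0 and 202 counts over 6 contigs, and both contigs in the comparison were higher in low temperature, beside 93.3% of contigs with other annotation, with a median log2 ratio of 7.68, or 5.80 at the floor. SUPT16H (TRINITY_DN31842_c0_g1_i2), the partner of SSRP1 in FACT, had 79 counts in low temperature, and NASP (TRINITY_DN7266_c0_g1_i1), a chaperone of H3 and H4, had 40, both against 0 elsewhere. Further NASP contigs, TRINITY_DN7266_c0_g1_i4 and TRINITY_DN7266_c0_g1_i2, had 29 and 26 counts, again in low temperature alone. Histone-modifying enzymes summed to 1, 2 and 583 counts over 25 contigs, and all 5 in the comparison were higher, beside the same 93.3%, with a median of 7.39, or 5.51 at the floor. The acetyltransferase subunit TADA3 (TRINITY_DN52420_c0_g1_i1) had 46 counts in low temperature alone. The most abundant of this list were named for arginine methyltransferases, PRMT8 (TRINITY_DN730_c0_g1_i4) with 131 low-temperature counts and 43 on a second contig (TRINITY_DN730_c0_g1_i3), and PRMT3 (TRINITY_DN19981_c0_g1_i1) with 63, and the first of these was described as acting on a ribosomal protein. The 2 contigs of histone mRNA processing, SYMPK (TRINITY_DN3825_c0_g1_i1) with 20 counts in low temperature and CPSF2 (TRINITY_DN20880_c0_g1_i1) with 15, stayed below the filter, with 1 and 0 counts over the list in control and low salinity.

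Genes of DNA replication, the phase in which replication-dependent histones are made, also had most of their counts in low temperature. Over 22 contigs they summed to 31, 14 and 577 counts in control, low salinity and low temperature. Of 8 in the comparison 7 were higher in low temperature and 1 was lower, beside 93.3% and 5.96% of contigs with other annotation, with a median log2 ratio of 7.17, or 5.74 at the floor. The replicative helicase subunits MCM6 (TRINITY_DN9204_c0_g1_i1), MCM7 (TRINITY_DN51807_c0_g1_i1) and MCM4 (TRINITY_DN42767_c0_g1_i1) had 101, 58 and 52 counts in low temperature, against 0, 0 and 2 in control. The single-strand DNA binding protein RPA1 (TRINITY_DN9815_c0_g1_i1) had 67 against 0. The lower one was DUT (TRINITY_DN57671_c0_g1_i1), which removes dUTP from the nucleotide pool, with 24, 10 and 1 counts in control, low salinity and low temperature.

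Cell cycle genes summed to 0, 1 and 251 counts over 9 contigs, and both in the comparison were higher in low temperature, beside 93.3% of contigs with other annotation, with a median of 7.94, or 6.06 at the floor. The cohesin subunit SMC3 (TRINITY_DN7210_c0_g1_i1) had 137 counts there, the checkpoint protein BUB3 (TRINITY_DN42635_c0_g1_i1) 33, the mitotic cyclin CCNB1 (TRINITY_DN54883_c0_g1_i1) 23 and the mitotic kinase PLK1 (TRINITY_DN57199_c0_g1_i1) 15, all against 0 in control and in low salinity. In all of these lists, contigs at 0 in control and low salinity entered through low temperature alone, so their direction was fixed by the filter.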

How the data were processed

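The authors deposited counts per assembled contig, per the file headers, as whole numbers. Reads were checked or processed with Salmon 1.10.2, fastp 0.23.2 and FastQC 0.11.9, per the submitters' processing notes. Salmon's estimates need not be whole, so the deposited counts are assumed to have been rounded. Assembler, annotation and genome build: not given in the sources used here. Libraries were made from total RNA, and no poly(A) selection is named, per the labels' protocols. The count table held 33093 rows for 31922 contigs, with 1005 contigs listed more than once with equal counts, and each was used once. In a further table the authors deposited a normalized signal for each gene, which is that of 1 contig. The authors' deposited comparison tables hold a log2 fold change, a baseMean score and p-values. Those p-values rest on 1 library per condition and are not reported.

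Here gene values were sums over contigs. Libraries were scaled by TMM over the whole table (edgeR 4.0.16, R 4.3.3), with factors of 1.73, 1.29 and 0.449 for control, low salinity and low temperature. Contig log2 ratios used a prior count of 0.5, contigs were compared at a mean count of at least 10, and a 2-fold difference was the size rule. Ratios carry exact conditional binomial intervals, and a library at 0 was set to a floor of 3 counts. Bounds made with that floor leave out the counting error of the other library. Intervals cover counting error only, because each condition has 1 library. The reads were amplified and carry no molecular identifiers, so the intervals can be too narrow even for that error. The ratio calculation was tested on simulated libraries that shared the same profile apart from some changed contigs. Libraries as different in make-up as these were not simulated, so the choice of scaling was not tested. All 7 genes are named, and of each other list the 4 contigs with most counts (those named H3F3C and H1F0 as gene sums), beside exceptions chosen after their values were seen. These were H1FOO, HIST1H1A, HINFP, RPS6KA4 and DUT. Lists were matched by names and descriptions, and contigs with mobile-element text, 1 in the replication list, were left out. The members and lists were chosen with earlier results of these data known. Alternatives were other scalings, filters, prior counts, gene values and row handling.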

Additional observations from a re-analysis of the deposited data

How the results depend on the processing

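The contig counts of the 3 comparisons kept within 1.5 times their value under other scalings, a prior count of 3, no filter and counting of every listed row, apart from low salinity against control with total counts, which gave 1 contig higher and 6 lower in place of 2 and 2. Contigs at 0 in only 1 library of a comparison had their direction fixed in advance, so their part in this stability is no evidence of a direction. In low temperature against control, the higher contigs went from 5 to 4 with total counts, upper-quartile scaling and TMMwsp, as TRINITY_DN227_c0_g1_i2 dropped out. Under the stricter filter, a mean of 50 counts, only 4 contigs were left, all from multi-contig genes. Then 0 were higher and 4 lower in low temperature against control, 0 higher and 1 lower in low salinity against control, and 3 higher and 0 lower in low salinity against low temperature (10 and 5 before). The shares over all contigs at that filter are not given here, so these counts have nothing to be set against. The log2 ratio of TRINITY_DN227_c0_g1 reversed with the authors' normalized gene table. It went from -2.56 to 2.10 in low temperature against control and from 2.01 to -2.55 in low salinity against low temperature. That table holds contig TRINITY_DN227_c0_g1_i2 alone, and the sign of this contig's ratio also depends on the scaling. The gene sum's log2 ratio of low temperature to control moved to -0.97 with TMM over the contigs compared, short of 2-fold. That scaling and TMMwsp were chosen after seeing the data. Scaling moved the median log2 ratio of all contigs between -2.25 and 2.40 in low temperature against control, against 0.83 with TMM, so sizes of single ratios in that comparison are uncertain by that much, whereas shares within a gene are not affected. No paired analysis was possible because each condition has 1 library. Depth limits the low-temperature shares, which rest on 26 to 57 counts per gene.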
